A study of Mus musculus with 9 samples.

Results

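The glycolysis and hypoxia response genes are 30 genes taken by symbol from the deposited table of 24532 genes. They comprise 18 genes of glucose uptake, the glycolytic enzymes and lactate export, called the glycolysis genes here, and 12 genes of the response to low oxygen, called the hypoxia genes. The rule that picks them uses symbols and no measured value, although the list was drawn up with earlier results of these data known. All 30 were abundant enough to be among the 14507 genes tested. RNA was measured in bulk in cells labelled keratinocytes, sorted from fresh skin of C57BL/6 mice at postnatal day 1, day 7 and day 14, with 3 libraries per day and no treatment. The sort kept viable cells without the leukocyte surface protein CD45.2 and did not select for any keratinocyte marker, which leaves room for other skin cells that lack CD45.2. The labels give neither the sex of the mice nor whether the libraries of a day were separate animals, so the p-values measure only how far these libraries differ from each other, and that spread may be technical. The columns taken as day 1 carry the header D0, an age that no sample title has. Libraries are called by the number in their column header, which is 4, 5 or 6 at days 1 and 14 and 1, 2 or 3 at day 7.

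Glycolysis converts glucose into pyruvate in the cytosol, and pyruvate can then be reduced to lactate and exported or enter the mitochondrion. Cells that sense low oxygen stabilise the transcription factor subunit HIF-1α, because the prolyl hydroxylases that mark it for degradation need oxygen. HIF then raises transcription of many glycolytic genes and of genes for blood vessel growth, mitophagy and pH control. The epidermis has no blood vessels of its own, and its keratinocytes are known for active glycolysis.

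Total counts were between 50670191 and 62970768 per library, and levels are given as CPM, the counts scaled to a common library size with TMM factors. Across genes, log2 levels had a Pearson's r of 0.986 to 0.991 within a day and of 0.885 to 0.891 between days 14 and 1. The 10 keratinocyte markers summed to 58480 to 65740 CPM at day 1, 69990 to 72250 CPM at day 7 and 57640 to 61360 CPM at day 14, and none was at 0 in all libraries of a day. Summed markers of other cells were far lower and moved with age in both directions. The 10 fibroblast markers summed to 1514 to 1646 CPM at day 1, 1340 to 1411 CPM at day 7 and 287.9 to 306 CPM at day 14. Postn made up most of that sum (227 to 234 CPM at day 14, 1381 to 1497 CPM at day 1), Thy1 ran the other way (36.1 to 40 CPM at day 14, 8.19 to 9.7 CPM at day 1), and Dcn had 8.57 to 15 CPM at day 7 against 79.6 to 133 CPM at day 1. The 7 melanocyte markers summed to 412 to 436 CPM at day 1, 115 to 139 CPM at day 7 and 19.3 to 21.9 CPM at day 14. The 8 endothelial markers did not exceed 5.84 CPM in any library, with Cldn5 at 0 at day 1 and Emcn at 0 at day 14. The 5 Schwann cell markers went up with age, to 157.6 to 160 CPM at day 14, against 45.9 to 49.4 CPM at day 1, through Mbp and Ngfr, while Sox10 had 0.04 to 0.55 CPM at day 14 and 11 to 12.8 CPM at day 1. The 8 leukocyte markers summed to 13.1 to 14 CPM at day 14 and 4.5 to 5.23 CPM at day 1. The 6 erythroid markers summed to 11.7 to 41.5 CPM at day 7 and to at most 5.43 CPM on the other days, and muscle and adipocyte markers did not exceed 7.84 CPM in any library. The part of these other cells in the results below was not tested. Xist, a transcript of female cells, averaged 1352 ± 428 CPM at day 1 and 2534 ± 184 CPM at day 14 (SD, n = 3) and had 0 counts at day 7. The Y-linked gene Ddx3y had 0 counts at day 14 and averaged 41.8 ± 13.3 CPM at day 1 and 105 ± 5.9 CPM at day 7. Every day 1 library held both transcripts, with 861 to 1642 CPM of Xist and 29 to 55.6 CPM of Ddx3y, as a mix of male and female cells would. By these 2 transcripts, day 7 was male and day 14 female, so day 14 relative to day 1 sets female libraries against mixed ones. The day 7 columns also differ in the style of their headers, so sex and a separate preparation of day 7 cannot be told apart from age in the comparisons below. In bulk RNA, fewer cells of a type and less RNA per cell cannot be told apart either.

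The stretches before the transcription start of 4 genes are shown because they set 3 of the genes with the largest rises at day 14 relative to day 1 beside Pgk1, a classical hypoxia-inducible enzyme gene that did not pass the test in that comparison. Each line gives the 250 bases before a start annotated in RefSeq (GRCm38.p6), read 5′ to 3′ on the strand of the gene. For Adm and Pgk1 this start is the first base of the gene span. For Pfkp and Slc16a3 it is a start inside the gene span given below, so their stretches lie within the gene. Capitals mark ACGTG and GCGTG, the common forms of the core of the hypoxia response element, and their reverse complements CACGT and CACGC.
Adm, chr7:110627407-110627656, plus strand: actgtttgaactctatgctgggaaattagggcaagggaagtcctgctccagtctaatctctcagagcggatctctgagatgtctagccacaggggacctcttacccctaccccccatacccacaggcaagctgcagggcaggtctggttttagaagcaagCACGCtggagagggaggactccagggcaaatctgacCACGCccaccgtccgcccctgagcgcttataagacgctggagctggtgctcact
Pfkp, chr13:6648772-6649021, minus strand: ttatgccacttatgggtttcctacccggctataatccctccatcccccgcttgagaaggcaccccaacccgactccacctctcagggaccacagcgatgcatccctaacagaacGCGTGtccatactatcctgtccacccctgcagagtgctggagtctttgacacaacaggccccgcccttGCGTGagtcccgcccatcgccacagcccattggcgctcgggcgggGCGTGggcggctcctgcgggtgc
Slc16a3, chr11:120948817-120949066, plus strand: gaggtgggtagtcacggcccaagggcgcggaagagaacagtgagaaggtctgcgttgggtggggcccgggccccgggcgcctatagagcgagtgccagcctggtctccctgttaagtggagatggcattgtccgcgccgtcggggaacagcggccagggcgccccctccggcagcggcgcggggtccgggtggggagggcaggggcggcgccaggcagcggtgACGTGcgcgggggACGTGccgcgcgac
Pgk1, chrX:106186850-106187099, plus strand: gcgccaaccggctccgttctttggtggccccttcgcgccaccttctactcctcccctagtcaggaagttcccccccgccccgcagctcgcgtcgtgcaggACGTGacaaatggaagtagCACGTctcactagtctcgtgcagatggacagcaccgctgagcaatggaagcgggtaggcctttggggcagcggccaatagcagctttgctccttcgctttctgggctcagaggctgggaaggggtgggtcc
The Adm stretch held 2 matches to GCGTG, that of Pfkp 3 matches to GCGTG, and those of Slc16a3 and Pgk1 2 matches each to ACGTG. The matches nearest to the start used began 54, 23, 14 and 131 bases before it in Adm, Pfkp, Slc16a3 and Pgk1. RefSeq starts were matched by symbol for 28 of the 30 genes, with no entry for Slc2a3 and Ndrg1. At least 1 of the 2 motifs, on either strand, stood in a 250-base stretch of 15 of 17 glycolysis genes (88.2%), with no match in Gpi1 and Tpi1, and in that of 11 of 11 hypoxia genes (100%). The share was 60.2% over the 10865 tested genes with an entry and 41.5% over all 27025 genes with one. A gene counted if any of its annotated starts had a match, so genes with more starts had more bases searched. The glycolysis genes had 28 stretches for 17 genes and the hypoxia genes 13 for 11. The tested genes had 13811 for 10865, and all genes 32851 for 27025, so these shares are not on equal terms. Genes that rose and genes that did not pass the test both held the motifs, and a match is a run of letters, not evidence of binding.

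The glycolysis genes changed in both directions with age, by modest amounts for most enzymes and by several-fold for Pfkp, Slc16a3 and Hk1. Of the 18, 9 rose at day 14 relative to day 1, 1 fell and 8 did not pass edgeR's quasi-likelihood test at a Benjamini-Hochberg adjusted p under 0.05. Of all 14507 genes tested, 73.9% passed in this comparison, 35.5% as higher and 38.4% as lower. At day 7 relative to day 1, 9 rose and 1 fell, beside 49.4% of all genes passing (25.5% higher, 24% lower). In the second step, day 14 relative to day 7, 6 rose and 8 fell, beside 67.6% of all genes (32.5% higher, 35.1% lower). The shares of glycolysis genes passing were 55.6%, 55.6% and 77.8% in these 3 comparisons. For day 14 relative to day 1 the share lay below that of all genes, and in both steps that involve day 7 it lay near it. With 18 genes, no difference from all genes was tested.

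**Figure D1:**
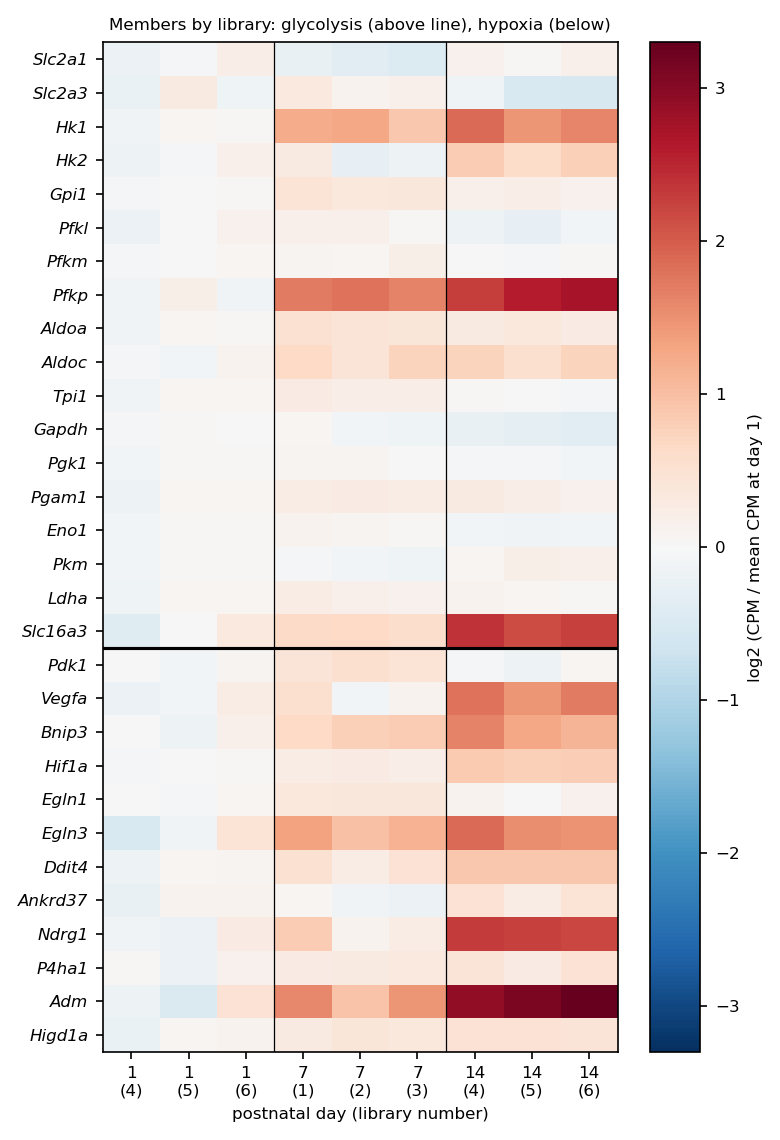
Each row is a gene and each column a library, labelled by postnatal day with the header number in brackets, and the colour is the log2 ratio of the gene's CPM to its mean at day 1. Adm, Pfkp, Slc16a3 and Ndrg1 are the darkest red rows at day 14, and the rows from Tpi1 to Ldha stay near white.

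Glucose enters the cell through facilitative transporters. Slc2a1 encodes GLUT1, the main glucose transporter of keratinocytes (gene 20525, mm10, chromosome 4, 119108745 to 119137330). It had 317, 348 and 424 CPM at day 1, 306, 278 and 264 CPM at day 7, and 402, 374 and 408 CPM at day 14. Every day 7 library lay below every library of the other days, and days 1 and 14 overlapped. Slc2a1 fell at day 7 relative to day 1 (log2 fold change -0.36 ± 0.10 SE, edgeR quasi-likelihood adjusted p = 0.0138) and rose at day 14 relative to day 7 (0.48 ± 0.10, adjusted p = 0.00188). Between days 14 and 1 the difference was 0.12 ± 0.10 (adjusted p = 0.298). The fall at day 7 did not pass without day 7 library 3 (-0.31, adjusted p = 0.054), and without day 1 library 6 Slc2a1 passed as higher at day 14 than at day 1 (0.24, adjusted p = 0.0113). Slc2a3 encodes GLUT3, a high-affinity transporter best known in neurons. It stayed near the floor of the tested range, with 1.57, 2.25 and 1.64 CPM at day 1, 2.29, 1.99 and 2.05 CPM at day 7, and 1.64, 1.28 and 1.27 CPM at day 14. It fell at day 14 relative to day 7 (-0.59 ± 0.22, adjusted p = 0.0277). This call was lost without day 7 library 1 (-0.54, adjusted p = 0.0799), day 14 library 5 (-0.54, adjusted p = 0.077) or day 14 library 6 (-0.54, adjusted p = 0.0747).

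Hexokinases trap glucose in the cell by phosphorylating it. Hk1 is the widely expressed isozyme (gene 15275, chromosome 10, 62268855 to 62379920). Its levels were 50.5, 57.8 and 56.4 CPM at day 1, 128, 133 and 101 CPM at day 7, and 202, 152 and 169 CPM at day 14. The 3 days did not overlap. Hk1 was 2.2-fold higher at day 7 than at day 1 (log2 1.13 ± 0.13, adjusted p = 0.000191), 1.45-fold higher at day 14 than at day 7 (0.53 ± 0.13, adjusted p = 0.00728) and 3.17-fold higher at day 14 than at day 1 (1.67 ± 0.14, adjusted p = 6.58e-06). Hk2, the isozyme that HIF and insulin induce in many tissues (chromosome 6, 82725025 to 82774454), rose in the second step. It had 83, 90.6 and 103.9 CPM at day 1, 114, 77.3 and 81.7 CPM at day 7, and 166, 141 and 158 CPM at day 14. Days 7 and 1 overlapped, and every day 14 library lay above both. The rise at day 14 was 0.77 ± 0.16 relative to day 7 (adjusted p = 0.00355) and 0.75 ± 0.16 relative to day 1 (adjusted p = 0.00357). Gpi1, which converts glucose 6-phosphate into fructose 6-phosphate, averaged 225 ± 8.05 CPM at day 1, 294 ± 11.5 CPM at day 7 and 254 ± 5.12 CPM at day 14 (SD, n = 3), and its days did not overlap. It was higher at day 7 than at day 1 (0.39 ± 0.05, adjusted p = 2.11e-05) and lower at day 14 than at day 7 (-0.21 ± 0.05, adjusted p = 0.0013). Its rise at day 14 relative to day 1 (0.18 ± 0.05, adjusted p = 0.00372) turned to -0.10 with library totals alone as scaling.

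Phosphofructokinase catalyses the committed step of glycolysis and is a tetramer of 3 kinds of subunit, named for liver (Pfkl), muscle (Pfkm) and platelet (Pfkp). Pfkp carried the largest fold change of the glycolysis genes (gene 56421, chromosome 13, 6579874 to 6649060). It had 43.4, 53.9 and 43.6 CPM at day 1, 154, 163 and 146 CPM at day 7, and 229, 284 and 309 CPM at day 14. The libraries of the 3 days formed 3 separate ranges. Pfkp rose 3.29-fold at day 7 relative to day 1 (log2 1.72 ± 0.12, adjusted p = 5.3e-06), 1.77-fold at day 14 relative to day 7 (0.83 ± 0.12, adjusted p = 0.000261) and 5.83-fold at day 14 relative to day 1 (2.54 ± 0.13, adjusted p = 1.15e-07). Pfkl had 99.6, 115 and 126 CPM at day 1, 127, 127 and 116 CPM at day 7, and 101, 93.4 and 107 CPM at day 14. Days 7 and 1 overlapped, as did days 14 and 1, and the day 14 libraries lay below those of day 7 (-0.30 ± 0.08, adjusted p = 0.00723). Pfkl passed as lower at day 14 than at day 1 without day 1 library 4 (-0.28, adjusted p = 0.00367) or day 14 library 6 (-0.23, adjusted p = 0.0451), against -0.18 ± 0.08 in all libraries (adjusted p = 0.0689). It passed as higher at day 7 than at day 1 without day 1 library 6 (0.21, adjusted p = 0.0499). Pfkm had 27.7, 28.6 and 30.04 CPM at day 1, 30.7, 30.4 and 32.9 CPM at day 7, and 28.5, 28.1 and 29.8 CPM at day 14. It passed in none of the 3 pairs of days, with log2 fold changes between -0.12 and 0.12, and without day 1 library 4 it passed as lower at day 14 than at day 7 (-0.13, adjusted p = 0.0468).

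Because the subunits are alternatives for 1 enzyme, their levels were also put on a per-length scale, as CPM per kilobase of merged coding-transcript exons in GENCODE M21, and taken as shares of the 3 genes together. Pfkp made up 21.5 ± 2.48% of phosphofructokinase CPM per kilobase at day 1, 45.2 ± 0.84% at day 7 and 63.4 ± 3.53% at day 14 (SD, n = 3). Pfkl made up 59.6 ± 2.61%, 41.6 ± 0.90% and 27 ± 2.73% at the same days. The platelet subunit held the largest share at days 7 and 14, and the liver subunit at day 1, although at day 7 the per-length levels of the 2 overlapped. Of the summed CPM per kilobase of both hexokinases, Hk1 made up 40.8 ± 2% at day 1, 60.6 ± 5.25% at day 7 and 56.4 ± 1.81% at day 14.

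**Figure D2:**
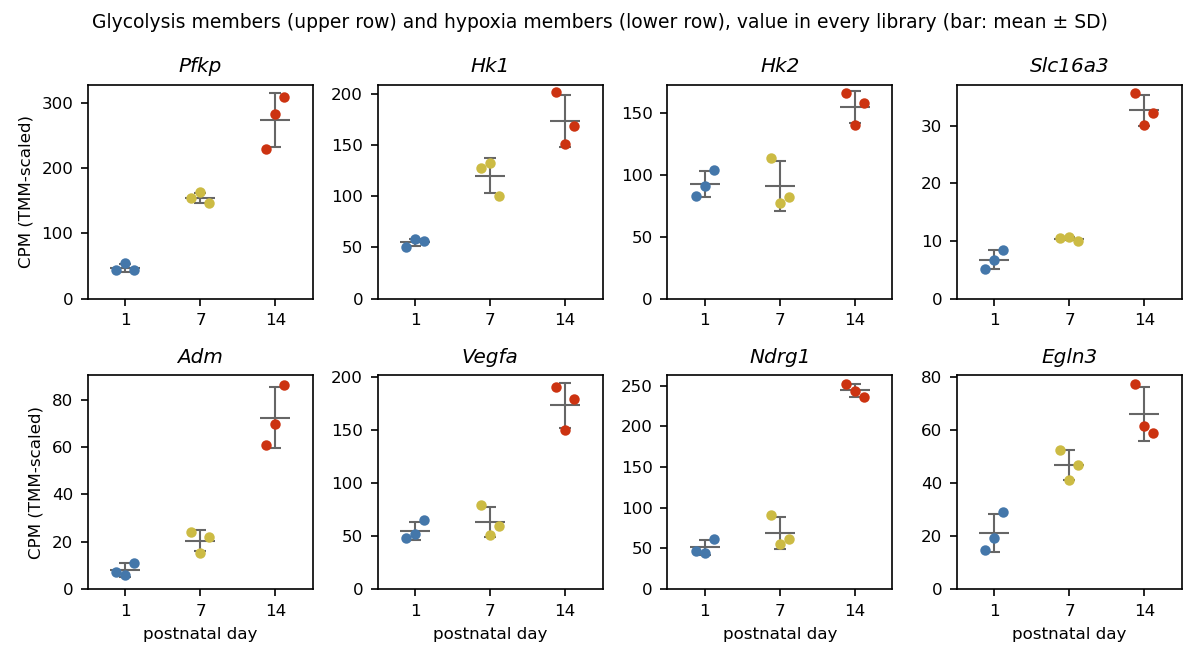
Points are single libraries in CPM on TMM-scaled libraries by postnatal day for 4 glycolysis genes (upper row) and 4 hypoxia genes (lower row), and bars are the mean ± SD of 3 libraries. Pfkp and Hk1 form 3 separate ranges, whereas Hk2, Vegfa and Ndrg1 overlap between days 7 and 1 and stand higher at day 14.

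The enzymes from aldolase to pyruvate kinase moved little. Aldolase splits fructose 1,6-bisphosphate, and Aldoa is its main isozyme outside liver and brain. It had 345, 395 and 384 CPM at day 1, 529, 506 and 496 CPM at day 7, and 458, 472 and 453 CPM at day 14, with no overlap between the days. It was higher at day 7 than at day 1 (0.45 ± 0.05, adjusted p = 2.33e-05) and at day 14 than at day 1 (0.30 ± 0.05, adjusted p = 0.000235). It was lower at day 14 than at day 7 (-0.15 ± 0.05, adjusted p = 0.0278). The last of these calls was lost without day 7 library 1 (-0.13, adjusted p = 0.0816) or day 14 library 6 (-0.14, adjusted p = 0.0542). Aldoc, the brain isozyme, was low, with 5.3, 5.18 and 5.99 CPM at day 1, 8.65, 7.32 and 9.17 CPM at day 7, and 9.19, 7.94 and 9.09 CPM at day 14. It rose at day 7 (0.61 ± 0.11, adjusted p = 0.000795) and at day 14 (0.67 ± 0.11, adjusted p = 0.000175), each relative to day 1, and days 14 and 7 overlapped.

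Tpi1, the triose phosphate isomerase, averaged 264 ± 19 CPM at day 1, 311 ± 8.58 CPM at day 7 and 262 ± 10.5 CPM at day 14. It was higher at day 7 than at day 1 (0.24 ± 0.06, adjusted p = 0.0039) and lower at day 14 than at day 7 (-0.25 ± 0.06, adjusted p = 0.00177). Gapdh, the glyceraldehyde 3-phosphate dehydrogenase that is widely used as a reference transcript, had 379.9, 410.1 and 402 CPM at day 1, 413, 376 and 362 CPM at day 7, and 337, 323 and 312 CPM at day 14. Days 7 and 1 overlapped and every day 14 library lay below both. Gapdh was the only glycolysis gene that fell at day 14 relative to day 1 with TMM scaling of all 9 libraries (-0.29 ± 0.06, adjusted p = 0.000387). It also fell at day 14 relative to day 7 (-0.24 ± 0.06, adjusted p = 0.00196). Pgk1, the X-linked phosphoglycerate kinase whose promoter is shown above, averaged 174 ± 8 CPM at day 1, 181 ± 4.43 CPM at day 7 and 166 ± 1.61 CPM at day 14. It fell at day 14 relative to day 7 (-0.13 ± 0.05, adjusted p = 0.0233), but not past the threshold without day 7 library 1 (-0.13, adjusted p = 0.0516) or day 7 library 2 (-0.13, adjusted p = 0.0578). Without day 1 library 4, Pgk1 passed as lower at day 14 than at day 1 (-0.12, adjusted p = 0.0292), and so did Eno1 (-0.15, adjusted p = 0.00969).

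Pgam1, a phosphoglycerate mutase, averaged 127 ± 11.4 CPM at day 1, 152 ± 1.05 CPM at day 7 and 148 ± 8.69 CPM at day 14. It was higher at day 7 than at day 1 (0.25 ± 0.06, adjusted p = 0.00595), and its rise at day 14 relative to day 1 (0.22 ± 0.06, adjusted p = 0.00875) turned to -0.06 with library totals alone. Eno1, the main enolase outside muscle and neurons, averaged 340.4 ± 16.4 CPM at day 1, 360.1 ± 10.8 CPM at day 7 and 318 ± 4.47 CPM at day 14. It fell at day 14 relative to day 7 (-0.18 ± 0.05, adjusted p = 0.00415). Pkm, the pyruvate kinase gene of non-liver tissue whose 2 splice forms these gene counts do not separate, averaged 660.4 ± 35.5 CPM at day 1, 616 ± 21.1 CPM at day 7 and 729 ± 34.7 CPM at day 14. It ran opposite to most of its neighbours in the pathway, with a rise at day 14 relative to day 7 (0.24 ± 0.05, adjusted p = 0.00129). Its rise at day 14 relative to day 1 (0.14 ± 0.05, adjusted p = 0.0257) turned to -0.13 with library totals alone. That call was lost without day 1 library 4 (0.09, adjusted p = 0.145), day 14 library 5 (0.11, adjusted p = 0.114) or day 14 library 6 (0.12, adjusted p = 0.0785). Without day 1 library 4, Pkm passed as lower at day 7 than at day 1 (-0.14, adjusted p = 0.0379).

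Lactate dehydrogenase A turns pyruvate into lactate. Ldha (gene 16828, chromosome 7, 46842274 to 46855627) had 320.4, 365 and 367 CPM at day 1, 412, 396 and 387 CPM at day 7, and 377, 369 and 361 CPM at day 14. Day 7 stood above both other days, which overlapped. The rise at day 7 relative to day 1 was 0.18 ± 0.05 (adjusted p = 0.0144) and was lost without day 7 library 1 (0.16, adjusted p = 0.0556). The difference at day 14 relative to day 1 was 0.07 ± 0.05 (adjusted p = 0.242). The second step gave -0.11 ± 0.05 (adjusted p = 0.0908), and it passed as lower without day 1 library 4 (-0.12, adjusted p = 0.0192). Slc16a3 encodes MCT4, a lactate exporter that HIF induces (gene 80879, chromosome 11, 120948484 to 120959000). Its levels were 5.12, 6.69 and 8.51 CPM at day 1, 10.5, 10.6 and 10.1 CPM at day 7, and 35.7, 30.2 and 32.2 CPM at day 14, again as 3 separate ranges. It rose 1.54-fold at day 7 relative to day 1 (log2 0.62 ± 0.15, adjusted p = 0.00626), 3.13-fold at day 14 relative to day 7 (1.65 ± 0.15, adjusted p = 3.87e-06) and 4.83-fold at day 14 relative to day 1 (2.27 ± 0.15, adjusted p = 2.27e-07).

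Some glycolysis genes share sequence or positions with other genes. The last 1292 bases of Slc16a3 overlap Csnk1d on the opposite strand, and because the strand setting of the counting is not given in the sources used here, reads of the 2 genes cannot be told apart there. Csnk1d itself averaged 232 ± 6.5 CPM at day 14 and 167 ± 3.11 CPM at day 1 (log2 0.47 ± 0.04, adjusted p = 4.39e-07), and the part of its reads in the rise of Slc16a3 was not tested. Pfkp overlaps Pitrm1 by 285 bases, and Pitrm1 was lower at day 14 than at day 1 (47.1 ± 4.06 CPM at day 14, 87.3 ± 2.62 CPM at day 1). Pfkm overlaps Senp1 by 981 bases, and Hk1 overlaps the antisense gene Hk1os, which had 226 counts over the 9 libraries against 58568 for Hk1. Gapdh, Pgk1, Ldha, Eno1, Pgam1 and Aldoa have copies or pseudogenes named after them in the mouse genome. Tpi1 and Pkm were grouped with them, although the search by name found no copy of either. How the counting split or discarded shared reads makes the levels of such genes uncertain. Without these 8 genes, the median log2 fold change of the glycolysis genes was 0.42 rather than 0.13 at day 14 relative to day 1. Most of the 8 are enzymes that moved little, and the part of shared reads in this shift was not tested.

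Among the hypoxia genes most of the changes were rises. By edgeR's quasi-likelihood test, 10 of 12 rose at day 14 relative to day 1, none fell and 2 did not pass, a share of 83.3% passing beside 73.9% of all genes. At day 7 relative to day 1, 9 rose and none fell (75% beside 49.4%), and at day 14 relative to day 7, 7 rose and 2 fell (75% beside 67.6%). The counts of 0 lower genes at days 7 and 14 relative to day 1 were also 0 at an unadjusted p under 0.05 and with DESeq2 and limma-voom. With library totals alone as scaling, 2 hypoxia genes, Pdk1 (-0.32) and Egln1 (-0.20), passed as lower at day 14 than at day 1.

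Hif1a encodes the oxygen-regulated subunit of HIF-1, which is controlled mainly at the protein level (gene 15251, chromosome 12, 73901324 to 73947554). It had 149, 151 and 157 CPM at day 1, 180.2, 183 and 177 CPM at day 7, and 279, 263 and 267 CPM at day 14. The days did not overlap and the spread within a day was small. Hif1a rose 1.18-fold at day 7 relative to day 1 (log2 0.24 ± 0.04, adjusted p = 0.000528), 1.5-fold at day 14 relative to day 7 (0.58 ± 0.04, adjusted p = 1.83e-07) and 1.77-fold at day 14 relative to day 1 (0.83 ± 0.04, adjusted p = 3.93e-09). The HIF prolyl hydroxylases Egln1 and Egln3, which mark HIF-α for degradation and whose genes are themselves HIF targets, differed in course. Egln1 had 95.8, 91.2 and 99.5 CPM at day 1, 121, 124 and 124 CPM at day 7, and 103, 93.8 and 105 CPM at day 14. Its day 7 libraries stood above both other days, which overlapped. The change was 0.37 ± 0.05 at day 7 relative to day 1 (adjusted p = 7.92e-05) and -0.29 ± 0.05 at day 14 relative to day 7 (adjusted p = 0.000246). Egln3 had 14.9, 19.2 and 28.9 CPM at day 1, 52.5, 41.2 and 46.7 CPM at day 7, and 77.5, 61.3 and 58.9 CPM at day 14. The 3 days were separate, although day 1 library 6 stood well above day 1 library 4. Egln3 rose 2.23-fold at day 7 relative to day 1 (1.16 ± 0.25, adjusted p = 0.00849) and 3.14-fold at day 14 relative to day 1 (1.65 ± 0.25, adjusted p = 0.000841). Its difference at day 14 relative to day 7, 0.49 ± 0.25, did not pass (adjusted p = 0.118) but did without day 1 library 6 (0.48, adjusted p = 0.0216).

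The secreted factors and Ndrg1 held the largest rises. Adm encodes adrenomedullin, a vasodilator peptide (gene 11535, chromosome 7, 110627657 to 110629820). It had 7.16, 5.81 and 11.2 CPM at day 1, 24.2, 15.3 and 21.9 CPM at day 7, and 60.9, 69.7 and 86.3 CPM at day 14, with no overlap between days. Adm rose 2.54-fold at day 7 relative to day 1 (log2 1.35 ± 0.30, adjusted p = 0.00856), 3.53-fold at day 14 relative to day 7 (1.82 ± 0.28, adjusted p = 0.00108) and 8.98-fold at day 14 relative to day 1 (3.17 ± 0.30, adjusted p = 6.21e-05). No other of the 30 genes had a larger fold change in this comparison. Vegfa encodes the main growth factor for blood vessels, which keratinocytes secrete to the dermis (gene 22339, chromosome 17, 46016993 to 46032377). It had 48.2, 51.5 and 64.7 CPM at day 1, 79, 51.2 and 59.1 CPM at day 7, and 190.2, 149.5 and 179.6 CPM at day 14. Days 7 and 1 overlapped (0.20 ± 0.19, adjusted p = 0.425), and every day 14 library stood above them. The rises were 2.74-fold relative to day 7 (1.46 ± 0.20, adjusted p = 0.000434) and 3.16-fold relative to day 1 (1.66 ± 0.20, adjusted p = 0.000173).

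Ndrg1, a stress- and differentiation-responsive gene (chromosome 15, 66929318 to 66969641), had 46.9, 44.8 and 61.5 CPM at day 1, 90.9, 54.9 and 61 CPM at day 7, and 252, 244 and 236 CPM at day 14. Its course was that of Vegfa, with overlap between days 7 and 1 (0.43 ± 0.21, adjusted p = 0.132). Ndrg1 was 3.54-fold higher at day 14 than at day 7 (1.82 ± 0.21, adjusted p = 0.000217) and 4.78-fold higher than at day 1 (2.26 ± 0.22, adjusted p = 5.57e-05).

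Mitochondrial and metabolic effectors formed a mixed set. Bnip3, a receptor that marks mitochondria for autophagy, had 15.5, 13.9 and 17.4 CPM at day 1, 24.8, 27.04 and 28.1 CPM at day 7, and 48.8, 37.7 and 33.8 CPM at day 14. It rose without overlap in each step and was 2.57-fold higher at day 14 than at day 1 (log2 1.36 ± 0.13, adjusted p = 6.95e-06). Pdk1, which inhibits pyruvate dehydrogenase by phosphorylation, peaked at day 7, with 86.9 ± 5.36 CPM at day 1, 120.1 ± 4.66 CPM at day 7 and 84 ± 6.31 CPM at day 14 (SD, n = 3). It was higher at day 7 than at day 1 (0.47 ± 0.06, adjusted p = 5.35e-05) and lower at day 14 than at day 7 (-0.52 ± 0.06, adjusted p = 1.17e-05). Higd1a, a small protein of the inner mitochondrial membrane, averaged 44.9 ± 5.29 CPM at day 1, 56.8 ± 1.94 CPM at day 7 and 62 ± 1.17 CPM at day 14. It rose at day 7 (0.34 ± 0.07, adjusted p = 0.00205) and at day 14 (0.46 ± 0.07, adjusted p = 8.68e-05), each relative to day 1. It passed as higher at day 14 than at day 7 without day 1 library 4 (0.11, adjusted p = 0.0412), against 0.12 ± 0.07 in all libraries (adjusted p = 0.145).

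Ddit4, which restrains mTORC1 under stress, averaged 63.3 ± 6.05 CPM at day 1, 84.3 ± 7.91 CPM at day 7 and 117 ± 0.57 CPM at day 14. It rose in both steps without overlap (0.41 ± 0.08, adjusted p = 0.000872, at day 7 relative to day 1 and 0.48 ± 0.08, adjusted p = 0.000163, at day 14 relative to day 7). P4ha1, a catalytic subunit of collagen prolyl 4-hydroxylase, averaged 63.5 ± 7.69 CPM at day 1, 78.2 ± 1.2 CPM at day 7 and 83.1 ± 6.18 CPM at day 14. The rise was 0.39 ± 0.08 at day 14 relative to day 1 (adjusted p = 0.00104). Ankrd37, an ankyrin repeat protein gene induced by HIF, was the lowest of the hypoxia genes and averaged 3.61 ± 0.50 CPM at day 1, 3.4 ± 0.31 CPM at day 7 and 4.76 ± 0.40 CPM at day 14. Its rise at day 14 relative to day 1 (0.40 ± 0.15, adjusted p = 0.0268) was lost without day 1 library 4 (0.28, adjusted p = 0.121), day 14 library 4 (0.35, adjusted p = 0.0864) or day 14 library 6 (0.36, adjusted p = 0.0758). Its rise at day 14 relative to day 7 (0.48 ± 0.15, adjusted p = 0.0117) was lost without day 7 library 3 (0.42, adjusted p = 0.0512).

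Hypoxia genes had the higher median in all 3 comparisons. The median log2 fold change of the 18 glycolysis genes was 0.20 at day 7 relative to day 1, -0.12 at day 14 relative to day 7 and 0.13 at day 14 relative to day 1. For the 12 hypoxia genes these medians were 0.39, 0.49 and 0.86, and for all 14507 genes tested they were 0.00, -0.04 and -0.05. Without the 8 glycolysis genes grouped above for their copies, most of which moved little, the glycolysis medians were 0.30, 0.27 and 0.42, so that of the second step changed sign. Scaling by library totals alone put the all-gene median at -0.10, -0.21 and -0.32, and 35.7%, 34.9% and 31.9% of the genes passing were higher, against 51.5%, 48.1% and 48.1% with TMM factors. Relative to the median of all genes, the difference at day 14 over day 1 was 0.18 for the glycolysis genes. It was 0.91 for the hypoxia genes. Both values were the same under either scaling by construction, since a change of scaling shifts all genes by nearly the same amount. Their agreement therefore cannot show that a result is robust to scaling. The unadjusted glycolysis median flipped to -0.14 with library totals alone. Without day 1 library 4, the glycolysis medians were 0.12 at day 7 and 0.05 at day 14, each relative to day 1, and 4 rather than 1 of these genes passed as lower at day 14. The difference between the subgroups was not tested, since the genes were chosen with earlier results known.

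**Figure D3:**
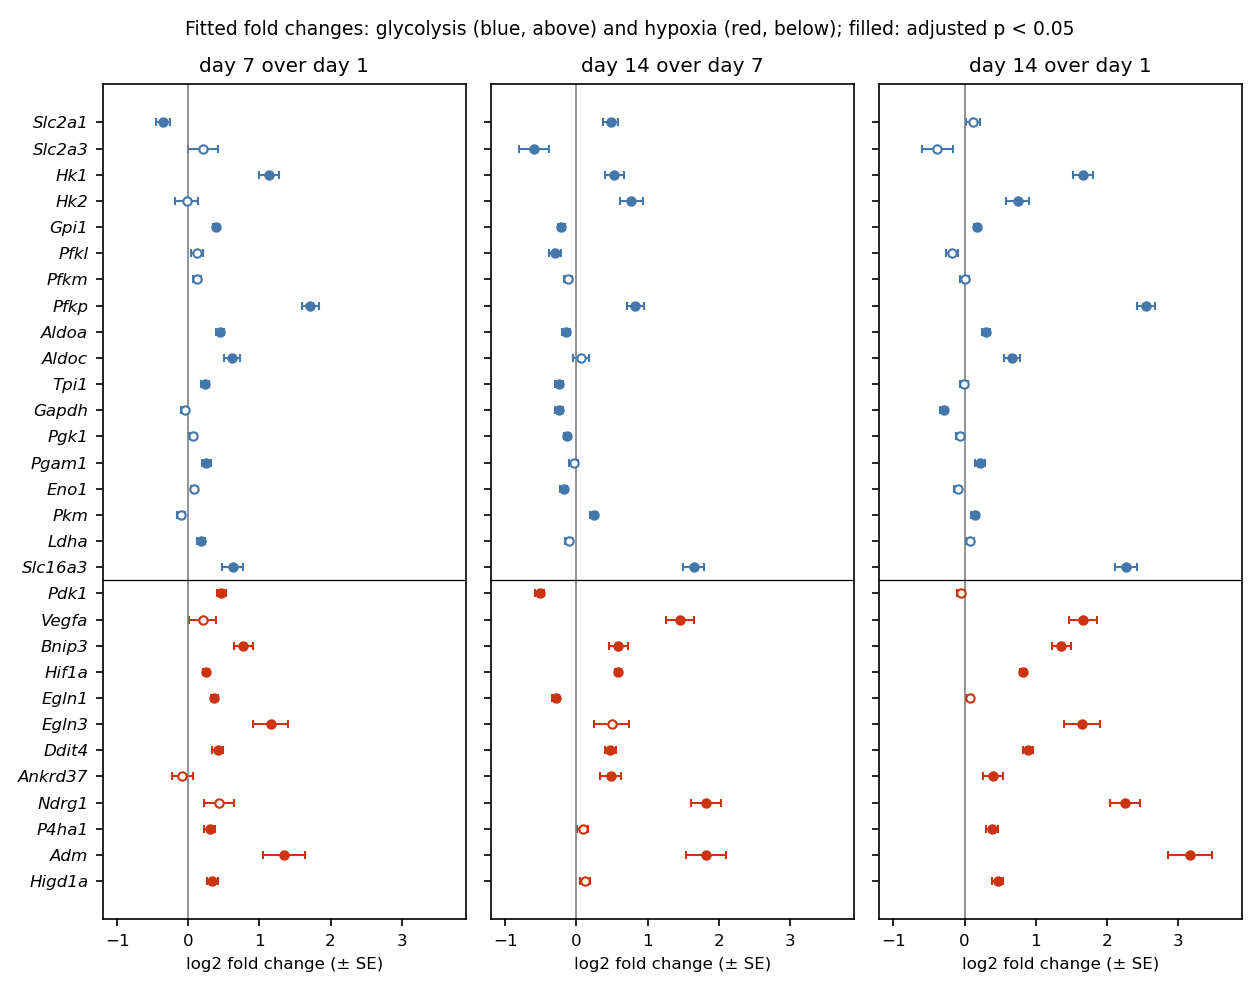
Points are log2 fold changes from edgeR with their SE for each gene in the 3 comparisons of days (TMM scaling), glycolysis genes above the line and hypoxia genes below it, filled where the adjusted p was under 0.05. In the middle panel 8 filled glycolysis points lie left of 0 and 6 right of it, against 2 and 7 for the hypoxia genes. In the right panel the 10 filled hypoxia points lie right of 0, whereas library totals alone put 2 hypoxia genes past the threshold on the left.

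Summed over genes, the glycolysis transcripts were at 3356, 3722 and 3804 CPM at day 1, 4208, 4009 and 3877 CPM at day 7, and 4205, 4174 and 4224 CPM at day 14. With TMM scaling, days 14 and 7 overlapped and both stood above day 1. That order rests on the scaling, since the TMM factors were 1.08 to 1.10 at day 1, 1.01 to 1.03 at day 7 and 0.89 to 0.91 at day 14. Library totals alone raise the day 1 sums and lower those of day 14, and day 14 then no longer stands above day 1. The hypoxia transcripts summed to 627, 631 and 723 CPM at day 1, 914, 838 and 863 CPM at day 7, and 1366, 1258 and 1328 CPM at day 14, without overlap.

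Genes of the immediate early and heat shock response, which cells switch on quickly under stress and during tissue dissociation, moved alongside. The 15 listed genes summed to 22500, 20320 and 25620 CPM at day 1, 31380, 25450 and 25940 CPM at day 7, and 42530, 41760 and 45590 CPM at day 14. Of the 15, 11 passed as higher and 2 as lower at day 14 than at day 1, or 86.7% passing beside 73.9% of all genes. Within days, day 1 library 6 and day 7 library 1 had the highest sums of their day, and the same libraries had the highest CPM of their day for Adm, Vegfa, Ndrg1, Egln3, Hk2 and Slc2a1. They also led for Gpi1, Pfkl, Tpi1, Pkm, Ldha and Ddit4, most of which changed little. They did not lead on both days for the remaining genes, among them Pfkp, Hk1, Slc16a3, Bnip3 and Hif1a. The share of all tested genes that these libraries led on both days is not given here, so this pattern may not be particular to the listed genes. At day 14 library 6 had the highest sum and led for Adm, Slc2a1, Pfkl and Ddit4. Library 4 led there for Vegfa, Ndrg1, Egln3, Hk2, Tpi1 and Ldha, and library 5 for Gpi1 and Pkm. The heat shock gene Hspa1a ran the other way in the second step, at 1163, 1333 and 1283 CPM at day 14 and 3423, 3428 and 3741 CPM at day 7. The part of these stress genes in the hypoxia results was not tested. The 10 proliferation genes summed to 826 to 912 CPM at day 14 and to 1553 to 1614 CPM at day 1, and their part was not tested either.

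**Figure D4:**
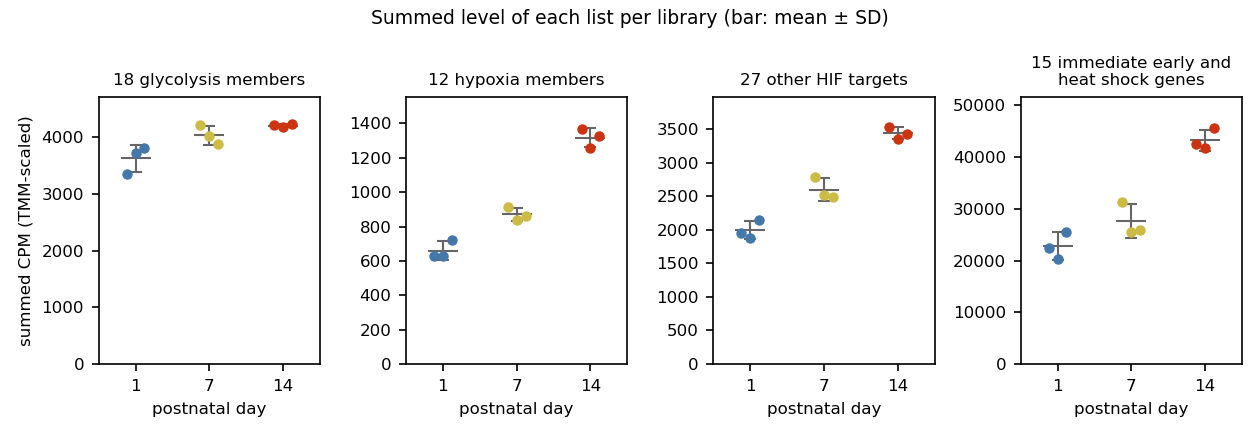
Points are summed CPM on TMM-scaled libraries per library by postnatal day for the glycolysis genes, the hypoxia genes, 27 other HIF target genes and 15 immediate early and heat shock genes, and bars are the mean ± SD of 3 libraries; every axis starts at 0. The hypoxia genes sum to 1258 to 1366 CPM at day 14 and 627 to 723 CPM at day 1, and the immediate early and heat shock genes to 41760 to 45590 CPM and 20320 to 25620 CPM at the same days.

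A separate contrast asked whether the level at day 7 lay off the midpoint of the other days on the log scale. Of the glycolysis genes, 9 lay above the midpoint and 4 below it, and of the hypoxia genes 2 lay above and 3 below, beside 51.8% of all genes passing (27.6% above, 24.2% below). Pdk1 (0.49 ± 0.05, edgeR adjusted p = 1.4e-05), Egln1 (0.33 ± 0.04, adjusted p = 6.79e-05), Gpi1 (0.30 ± 0.04, adjusted p = 6.39e-05), Aldoa (0.30 ± 0.05, adjusted p = 0.000212) and Tpi1 (0.24 ± 0.05, adjusted p = 0.00124) lay above the midpoint. Below it were Slc2a1 (-0.42 ± 0.09, adjusted p = 0.00311), Slc16a3 (-0.51 ± 0.13, adjusted p = 0.008) and Hif1a (-0.17 ± 0.04, adjusted p = 0.00254). These counts leaned on single libraries: without day 7 library 1, 4 rather than 9 glycolysis genes lay above, and without day 7 library 3, 2 rather than 4 glycolysis genes lay below. Without day 7 library 2 or day 7 library 3, 1 rather than 3 hypoxia genes lay below, since Vegfa and Ndrg1 no longer passed.

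The ratios between 8 pairs of paralogues within a library, which depend on library scaling only through the 0.5 CPM added to each gene, were tested with an exact permutation test over the 1680 assignments of the 9 libraries to the days, which is two-sided by construction and asks for any difference among the 3 days. No pair of days was tested on its own, so the differences between days 14 and 1 given with it are descriptions. The smallest p it allows is 0.00357, and p-values were adjusted over the 8 ratios. The log2 ratio of Pfkl to Pfkp was -1.18, -1.60 and -1.53 at day 14 and 1.19, 1.08 and 1.52 at day 1, a difference of -2.70, with day 7 between them at -0.27, -0.36 and -0.34 (exact permutation over the 3 days, adjusted p = 0.00571). That of Hk2 to Hk1 was -0.28, -0.11 and -0.09 at day 14 and 0.71, 0.64 and 0.88 at day 1, a difference of -0.90, and day 7 was lowest on average at -0.17, -0.78 and -0.30 (exact permutation over the 3 days, adjusted p = 0.00816). In both families the gene with the larger rise was not the one with the higher level per length at day 1.

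Among the hypoxia genes, the log2 ratio of Egln3 to Egln1 was -0.40, -0.61 and -0.83 at day 14 and -2.64, -2.21 and -1.77 at day 1, a difference of 1.60 (exact permutation over the 3 days, adjusted p = 0.00571). Bnip3 gained on its paralogue Bnip3l, which had 123, 108 and 121 CPM at day 1, 119, 121 and 124 CPM at day 7, and 143, 138 and 131 CPM at day 14. Their log2 ratio differed among the 3 days (exact permutation adjusted p = 0.00571), and was 1.10 higher on average at day 14 than at day 1. Ldhb, the lactate dehydrogenase subunit that favours the reverse reaction, had 23.4, 24.1 and 24.3 CPM at day 1, 26.3, 21.7 and 23.8 CPM at day 7, and 17.4, 15.8 and 15 CPM at day 14. The log2 ratio of Ldha to Ldhb differed among the days (exact permutation adjusted p = 0.00571) and was on average 0.64 higher at day 14 than at day 1. The ratio of Pfkp to Pfkm also differed among the days (exact permutation adjusted p = 0.00571), by 2.53 on average between days 14 and 1. For Slc2a1 to Slc2a3 the days differed too (exact permutation adjusted p = 0.00816), but day 7 was the low one, at 6.70 to 6.81, and day 14 (7.56 to 7.85) overlapped with day 1 (6.98 to 7.63). The ratio of Aldoa to Aldoc, -0.32 on average between days 14 and 1, did not pass (exact permutation adjusted p = 0.104).

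**Figure D5:**
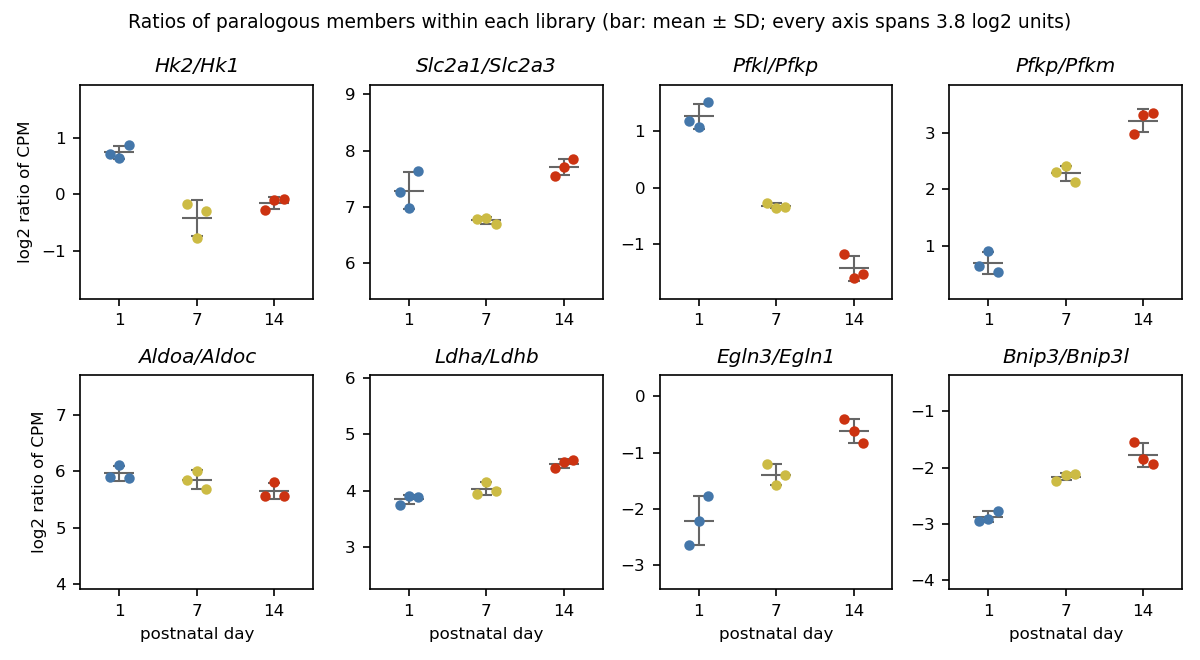
Points are log2 ratios of CPM (with 0.5 CPM added to each gene) within single libraries by postnatal day for 8 pairs of paralogues, bars are the mean ± SD of 3 libraries, and every axis spans the same range. The 3 days form separate ranges for Pfkl to Pfkp, Pfkp to Pfkm, Ldha to Ldhb, Egln3 to Egln1 and Bnip3 to Bnip3l, with day 14 at -1.60 to -1.18 and day 1 at 1.08 to 1.52 for Pfkl to Pfkp.

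Compared per length, the order of the genes shifted with age. Gapdh (266 ± 10.5 CPM per kilobase) and Pkm (254 ± 13.7) were the most abundant glycolysis transcripts at day 1 and overlapped, followed without overlap by Ldha (185 ± 13.9 CPM per kilobase). Both were again highest and overlapping at day 7, where Ldha (210.3 ± 6.69 CPM per kilobase) overlapped with Aldoa (199 ± 6.67 CPM per kilobase). By day 14 Pkm (281 ± 13.4 CPM per kilobase) stood above Gapdh (217 ± 8.13 CPM per kilobase), and Gapdh above Ldha (195 ± 4.39 CPM per kilobase), with no overlap between these neighbours. Pfkp stood fourteenth of 18 at day 1 (10.9 ± 1.4 CPM per kilobase) and eleventh at day 14 (63.8 ± 9.53 CPM per kilobase), without overlap with the genes on either side there. Slc2a3 was the lowest on each day, at 0.35 ± 0.05 CPM per kilobase at day 14 and 0.46 ± 0.09 at day 1.

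Among the hypoxia genes, Ddit4 led at day 1 (36.1 ± 3.45 CPM per kilobase) and at day 7 (48 ± 4.51 CPM per kilobase), above the next gene without overlap. At day 14 Ndrg1 led (84.5 ± 2.82 CPM per kilobase), followed without overlap by Ddit4 (66.9 ± 0.32 CPM per kilobase). Adm (52 ± 9.27), Hif1a (49.5 ± 1.53) and Vegfa (49.1 ± 5.99 CPM per kilobase) came next and overlapped with each other. Adm had stood eleventh of 12 at day 1 (5.79 ± 2.02 CPM per kilobase), where it overlapped with Egln3 and Ankrd37. Ankrd37 was the lowest on each day, at 5.14 ± 0.44 CPM per kilobase at day 14 and 3.89 ± 0.54 at day 1.

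Other genes of the same pathways give the setting, and from each list up to 4 genes with the smallest adjusted p are named. Of 13 tested isozymes and transporters outside the 18, 4 rose and 5 fell at day 14 relative to day 1. That is 69.2% passing beside 73.9% of all genes (35.5% higher, 38.4% lower). Slc2a12, which encodes the glucose transporter GLUT12, averaged 128 ± 10.2 CPM at day 14 and 9.92 ± 0.74 CPM at day 1 (log2 3.69 ± 0.11, edgeR adjusted p = 6.15e-10). The lactate and pyruvate transporters Slc16a1 (103 ± 13.5 CPM at day 14, 178 ± 12.9 CPM at day 1) and Slc16a7 (3.24 ± 0.49 CPM at day 14, 10.4 ± 1.07 CPM at day 1) fell at day 14 relative to day 1, while Slc16a3 rose. Of the summed CPM per kilobase of these 3 transporters, Slc16a3 made up 3.54 ± 0.63% at day 1, 4.76 ± 0.10% at day 7 and 23.8 ± 0.82% at day 14. Slc2a5, the fructose transporter, averaged 25 ± 3.66 CPM at day 14 and 27.7 ± 1.44 CPM at day 1 (-0.15, adjusted p = 0.146) and stood higher at day 7 (41.3 ± 1.06 CPM).

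Of 10 tested genes that set fructose 2,6-bisphosphate or belong to gluconeogenesis, 7 rose and none fell at day 14 relative to day 1 by edgeR (1 was lower at an unadjusted p under 0.05, and 0 with DESeq2 and limma-voom). The share passing was 70% beside 73.9% of all genes (35.5% higher, 38.4% lower). Pfkfb2 (346 ± 21.4 CPM at day 14, 101 ± 1.99 CPM at day 1) and Pfkfb3 (40.8 ± 3.16 CPM at day 14, 13.8 ± 1.51 CPM at day 1), bifunctional enzymes that make the allosteric activator of phosphofructokinase, were among the rises. Pfkfb4 (10 ± 0.45 CPM at day 14, 7.25 ± 0.24 CPM at day 1) and the mitochondrial enzyme gene Pck2 (15.3 ± 2.3 CPM at day 14, 7.47 ± 0.57 CPM at day 1) were among the rises too. Of 12 genes of pyruvate entry into mitochondria, 7 rose and 4 fell, or 91.7% passing beside 73.9% of all genes. The kinase Pdk4, a paralogue of Pdk1, averaged 25.7 ± 2.02 CPM at day 14 and 1.06 ± 0.19 CPM at day 1 (log2 4.61 ± 0.13, adjusted p = 2.14e-11). The opposing phosphatase Pdp1 also rose (39.5 ± 1.76 CPM at day 14, 15.4 ± 2.06 CPM at day 1), as did the pyruvate carrier subunit Mpc1 (34.6 ± 1.46 CPM at day 14, 23.9 ± 0.31 CPM at day 1). Dlat, a subunit of the dehydrogenase, fell (47.6 ± 1.11 CPM at day 14, 63.8 ± 1.29 CPM at day 1).

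Of 14 HIF subunits and oxygen-sensing partners, 4 rose and 7 fell at day 14 relative to day 1. That is 78.6% passing beside 73.9% of all genes (35.5% higher, 38.4% lower). Epas1, which encodes HIF-2α, averaged 66 ± 1.09 CPM at day 14 and 49.9 ± 4.74 CPM at day 1 (0.40 ± 0.06, adjusted p = 8.3e-05). Arnt, the constitutive partner of HIF-α, had 75.6 to 79.5 CPM at day 14 and 80.2 to 87.3 CPM at day 1 (-0.11, adjusted p = 0.0628). Cited2, a HIF-induced gene whose product competes for the coactivator p300, rose (97.6 ± 7.26 CPM at day 14, 38 ± 2.84 CPM at day 1), as did Ep300 (173 ± 5.08 CPM at day 14, 131 ± 3.36 CPM at day 1). The paralogue Arnt2 fell (0.29 ± 0.03 CPM at day 14, 5.41 ± 0.11 CPM at day 1). Of 26 tested HIF target genes outside the 12, 17 rose and 7 fell at day 14 relative to day 1. The share passing was 92.3% beside 73.9% of all genes. Their median log2 fold change was 0.47, beside 0.86 for the 12 hypoxia genes. The creatine transporter gene Slc6a8 (389 ± 7.8 CPM at day 14, 84.5 ± 5.36 CPM at day 1) and the nuclear receptor gene Rora (621 ± 33.6 CPM at day 14, 97.6 ± 7.4 CPM at day 1) were among the rises. The carbonic anhydrase gene Car12 (138 ± 0.98 CPM at day 14, 363 ± 16 CPM at day 1) and Fam162a (59.7 ± 0.69 CPM at day 14, 129 ± 12.2 CPM at day 1) fell, so targets assigned to HIF moved in both directions.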

How the data were processed

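RNA of 9 libraries was counted per gene by the authors. The submitters' processing notes name the mouse build mm10 and the tools StringTie 1.3.4d, HISAT2 2.1.0, Trimmomatic and bcl2fastq 2.20.0. How reads were counted, with which strand setting and on which annotation, is not given in the sources used here. The deposited read counts are whole numbers that the authors did not normalise, per the file headers. The 18 columns of TPM and FPKM were not used.

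TMM scaling and filterByExpr preceded the test, which was the robust quasi-likelihood F test of edgeR 4.0.16 (R 4.3.3) in 1 model of all 9 libraries, with Benjamini-Hochberg adjustment over 14507 genes, a threshold of 0.05 and no fold minimum. Spread is the SD of the 3 libraries of a day, and log2 fold changes carry their SE, later day over earlier day. The steps were tested on simulated counts with known changes in genes drawn from all those tested. Over the 3 comparisons, they recovered 18% to 26% of changes of 1.25-fold, 60% to 72% of 1.5-fold, 76% to 84% of 2-fold and 94% to 96% of 4-fold. A gene that did not pass may therefore still have changed by a small amount. CPM per kilobase used the merged exons of protein-coding transcripts in the GENCODE M21 basic annotation, matched by symbol, which may not be the authors' annotation. Ratios had 0.5 CPM added to each gene. DESeq2 1.42.0, limma 3.58.1, other scalings and left-out libraries were alternatives.

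All 30 genes are named. Every library's value is given for genes that changed by a log2 of 1 or more, for members of a ratio and for Hif1a, Vegfa, Gapdh and Ldha. From each further list, up to 4 genes with the smallest adjusted p and at least 5 CPM are named, except that 1 such gene is not reported here, and Arnt, Csnk1d, Pitrm1 and Hspa1a were added after their values were seen. The genes, lists and tests were chosen with earlier results of these data known.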

Additional observations from a re-analysis of the deposited data

How the results depend on the processing

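Library totals alone as scaling moved results in both directions. At day 7 relative to day 1, 3 rather than 1 glycolysis genes were lower, and the medians were 0.099 for glycolysis and 0.291 for hypoxia genes. At day 14 relative to day 7 the medians were -0.29 and 0.315. At day 14 relative to day 1, 5 rather than 9 glycolysis genes were higher and 9 rather than 1 lower, 2 hypoxia genes were lower, and the medians were -0.141 and 0.586. Gpi1 (-0.096), Pgam1 (-0.055), Pkm (-0.13), Ldha (-0.199) and Egln1 (-0.201) reversed there. Against a fold of 1.5, which by construction keeps fewer calls, glycolysis genes higher and lower were 2 and 0 at day 7 relative to day 1, 2 and 0 at day 14 relative to day 7, and 3 and 0 at day 14 relative to day 1. Hypoxia genes higher were 0 at day 7 relative to day 1 (with DESeq2 and limma-voom and no fold minimum, the count stayed within 1.5 times that of edgeR), and 3 higher and 0 lower at day 14 relative to day 7. Without the genes grouped above for their copies, the glycolysis medians were 0.301, 0.27 and 0.424 for day 7 relative to day 1, day 14 relative to day 7 and day 14 relative to day 1.

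Leaving out 1 library at a time gave these ranges. At day 7 relative to day 1, 8 to 10 glycolysis genes were higher and 0 to 2 lower with medians of 0.12 to 0.24. At day 14 relative to day 7, 5 to 10 glycolysis genes were lower and 6 to 8 hypoxia genes higher. At day 14 relative to day 1, 8 to 10 glycolysis genes were higher and 1 to 4 lower with medians of 0.053 to 0.173, and 9 to 10 hypoxia genes were higher. For the turn at day 7, 4 to 11 glycolysis genes lay above and 2 to 4 below, and 1 to 4 hypoxia genes lay below. Lower glycolysis genes at day 14 relative to day 1 numbered 4 without day 1 library 4 and 2 without day 14 library 6. The cause of these shifts was not tested. Each of the 8 ratios kept its direction and its side of the threshold without any 1 library and with 0.1 or 2 CPM added.

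Header numbers are shared by days 1 and 14, but same-numbered libraries deviated together with correlations of 0.014, 0.01 and 0.104, so they were not taken as pairs. With the replicate block on these numbers, 10170 rather than 10716 genes passed at day 14 relative to day 1, the glycolysis median was 0.135, and Ankrd37 was the member whose call was lost (0.404, adjusted p = 0.0559). A fit of days 1 and 14 alone, chosen after seeing the data, gave medians of 0.13 and 0.858. Slc2a3 and Ankrd37, which averaged under 5 CPM on each day, rest on the fewest counts of the 30 genes.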

Other observations

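Side branches of glucose use changed in both directions. Of 13 genes of glycogen metabolism, 5 rose and 6 fell at day 14 relative to day 1, or 84.6% passing beside 73.9% of all genes. Gys1, the glycogen synthase outside liver, averaged 19.8 ± 1.38 CPM at day 14 and 43.7 ± 0.77 CPM at day 1 (log2 -1.14 ± 0.06, edgeR adjusted p = 2.81e-09). The phosphorylase gene Pygb (60.4 ± 4.93 CPM at day 14, 129 ± 8.93 CPM at day 1) fell as well. Phkg2, a subunit of phosphorylase kinase, rose (39.5 ± 2.4 CPM at day 14, 25.4 ± 0.33 CPM at day 1). Of 7 genes of the pentose phosphate pathway, 3 rose and 2 fell at day 14 relative to day 1, or 71.4%. In the step to day 14 from day 7, 4 fell and none rose, or 57.1% beside 67.6% of all genes (edgeR, adjusted p under 0.05, and also 0 at an unadjusted p under 0.05 and with DESeq2 and limma-voom). Tkt, a transketolase, averaged 264 ± 14.5 CPM at day 1, 272 ± 10.5 CPM at day 7 and 197 ± 9.81 CPM at day 14.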
